A study of Mus musculus with 7 samples.

Results

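The replication-dependent histone cluster genes were taken as every gene whose symbol starts with Hist1h, Hist2h, Hist3h or Hist4h, the names used for the clusters on mouse chromosomes 13, 3, 11 and 6. They were 68 of the 23366 genes in the deposited tables, with 54 in Hist1h, 10 in Hist2h, 3 in Hist3h and 1 in Hist4h. By histone class, 6 belong to the linker histone H1, 18 to H2A, 19 to H2B, 12 to H3 and 13 to H4. Hist3h2bb-ps, counted with H2B, is annotated as a processed pseudogene. Of these, 7 had no count in any library, 61 had at least 1, and 56 passed the filter on low counts and were tested.

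Histone proteins package DNA. A pair each of H2A, H2B, H3 and H4 forms the nucleosome core, and H1 binds the DNA between nucleosomes. Cells make most of them during S phase, when new DNA has to be packaged, and the clusters hold many gene copies for each protein. The mRNAs are unusual in that they end just after a conserved stem-loop, which is bound by the protein Slbp and processed with the U7 small nuclear ribonucleoprotein, and normally carry no poly(A) tail. Some cluster genes are also known to give polyadenylated mRNA in cells that have stopped dividing. In the salivary glands, secretory cells still divide in the weeks after birth, and division slows as the glands mature.

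RNA of mouse parotid and submandibular glands, separate organs that secrete saliva, was sequenced in 7 libraries. There were 2 of parotid at postnatal day 18 (P18), 2 of submandibular gland at P18, and 3 of parotid from adults aged 12 weeks. The groups differ in gland or age, and no strain, sex, genotype or treatment is stated for them. The labels give polyadenylated RNA for every library. One label calls the material whole tissue while epithelial cells isolated from the glands are named in the extraction text, and no label says whether replicates came from separate mice, so p-values measure only the spread between these libraries.

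Total counts ran from 12844534 to 28856127 per library. Markers of the labelled tissue were present, with all 8 genes of an acinar (saliva-producing) cell list detected, summing to 68800 and 19700 CPM for the young parotid, 241000 and 277000 for the young submandibular gland and 566000 to 679000 for the adult parotid. CPM here is the count scaled per unit of depth after edgeR's TMM correction, which allows for a few genes that take much of a library. The P18 parotid libraries differed in content. Library 2 had 11400 CPM of 12 adipocyte markers and 7280 of 13 skeletal muscle markers, against 3440 and 1480 in library 1, and 24.8 CPM of 10 B cell and plasma cell markers and 31.3 of 11 T cell markers, against 182 and 173. Of 6 general epithelial markers it had 214 CPM against 545. Among the adults, library 1 had the highest sum of the cell cycle genes given below, and 429 CPM of T cell markers against 200 and 180. Adult library 3 had 6270 CPM of skeletal muscle markers, against 720 in library 1 and 1730 in library 2.

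RNA classes known to lack a poly(A) tail also separated the ages, and these were picked after their values were seen. Rpph1, the RNA of ribonuclease P, stood at 2250 and 3140 CPM (parotid) and 3950 and 4210 CPM (submandibular gland) at P18, against 1.76, 3.12 and 0.482 in the adult libraries. Rmrp, the RNA of a related ribonuclease, was at 1310, 1990, 2310 and 2360 CPM at P18 against 0.979, 4.64 and 0.289 in the adults. The 114 small nucleolar and Cajal body RNA genes of the table summed to between 679 and 892 CPM at P18 and between 20.2 and 38.4 in the adults. Their part in the adult results below was not tested.

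The 3′ stem-loop is shown because it marks how these mRNAs normally end. The GENCODE M21 transcripts of the GRCm38 build were searched for a 6-base-pair stem with a 4-base loop. It was found in an annotated transcript of 44 of the 68 genes, and in 0.229% of all protein-coding genes (50 of 21877, 6 of them outside the clusters). Of the 24 members without it, 16 have no annotated transcript over 500 bases, so the annotation may end before the stem-loop. In the sequences that follow, 5′ to 3′, the 16 bases of stem and loop are in capitals with 5 bases to either side.
Hist1h1c: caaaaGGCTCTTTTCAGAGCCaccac
Hist3h2a: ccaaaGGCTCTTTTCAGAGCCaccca
Hist2h3c1: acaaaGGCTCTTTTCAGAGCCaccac
Hist1h2ab: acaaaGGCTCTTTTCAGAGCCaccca
Hist1h3b: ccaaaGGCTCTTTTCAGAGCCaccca
Hist1h2bb: ccaaaGGCTCTTTTAAGAGCCaccca
Hist1h4c: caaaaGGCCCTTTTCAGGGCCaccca
Hist1h4i: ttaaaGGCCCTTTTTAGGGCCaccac
Hist1h1c, Hist3h2a and Hist2h3c1 had 1695, 517 and 749 counts over the adult libraries, while Hist1h2ab and Hist1h3b had none there. All 5 share one stem and loop. That form was the most common, in 26 genes of the H1, H2A, H2B and H3 classes and in none of H4. The H4 genes had other stems, with 7 genes sharing the stem and loop of Hist1h4c, 2 sharing those of Hist1h4i and 2 having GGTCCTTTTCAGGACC.

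At P18 the histone genes were expressed in both glands, with H4 and H2B genes leading by TPM. For levels between genes the deposited TPM was used, which takes gene length into account. The lengths it implies differ widely, with 312 bases for Hist1h4d and 1563 for Hist1h1c, and orders by counts can differ from those below. In P18 parotid Hist1h1c held 12.2% and 16.8% of the member counts, against 6.66% and 9.45% for Hist1h4d. Summed over the 68 genes, TPM came to 2950 and 2380 in the young parotid and to 2370 and 2250 in the young submandibular gland. In the adults the sum was 46.1, 93.7 and 78.7. TPM carries no TMM correction, and on log2(TPM + 1) the median of all genes differed by -1.54 between adult and P18 parotid. Adult beside P18 TPM therefore does not measure change by itself, and changes are given below on the TMM scale. At least 1 TPM was reached by 56 genes in each P18 parotid library, 57 in each submandibular library and 7, 9 and 9 in the adults.

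Among the H4 genes, whose copies encode the same core histone, Hist1h4d had the highest TPM of all members in every P18 library. It stood at 397 and 441 TPM in parotid and 330 and 289 in submandibular gland, against 0.688, 0 and 0 in the adults. Hist1h4c stood at 197 and 327 TPM in P18 parotid and 146 and 141 in submandibular gland, and Hist1h4h at 167 and 250, and 136 and 131. Hist2h4 and Hist1h4f were lower, between 61.9 and 77.8 TPM and between 38.3 and 76 TPM over the P18 libraries. At the other end of the class Hist4h4 had 7.23 to 11.6 TPM at P18, Hist1h4i 5.42 to 8.74, and Hist1h4m and Hist1h4n 1 count between them.

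Among H2B genes, Hist2h2bb was at 368 and 146 TPM in P18 parotid and 230 and 237 in submandibular gland. Hist1h2bb followed with 149 and 67.1 TPM, and 103 and 100. Hist1h2bc, one of the genes known in human cells to give polyadenylated mRNA, was at 80.2 and 77.8 TPM in P18 parotid. It had 83.5 and 99.8 TPM in submandibular gland and 15, 30 and 23.6 in the adults, where it led all members by TPM. By counts Hist1h1c led the adults, with 1695 against 946. The P18 parotid libraries lay far apart for Hist2h2bb and Hist1h2bb and close together for Hist1h2bc.

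The linker histone gene Hist1h1c had 145 and 157 TPM in P18 parotid, 101 and 112 in submandibular gland and 11.8, 22.7 and 21.9 in the adults. Hist1h1e and Hist1h1b, other linker histones, had 70.8 to 104 and 47.5 to 92.7 TPM at P18. The adults had up to 1.21 TPM of Hist1h1e and none of Hist1h1b. Hist1h3b, at 69.1 and 37.9 TPM in P18 parotid and 62.9 and 64.3 in submandibular gland, led the H3 genes by mean in submandibular gland, and Hist1h3f, at 62.3 and 54.4, in parotid. Among H2A genes no member passed 53.6 TPM in any library, the value of Hist1h2ak in P18 parotid library 1, and Hist2h2ac had 38.5 to 50.3 TPM at P18. Neighbours in these orders, such as Hist1h2bb and Hist1h2bc in P18 parotid or Hist1h3b and Hist1h3f, overlapped between libraries.

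**Figure D1:**
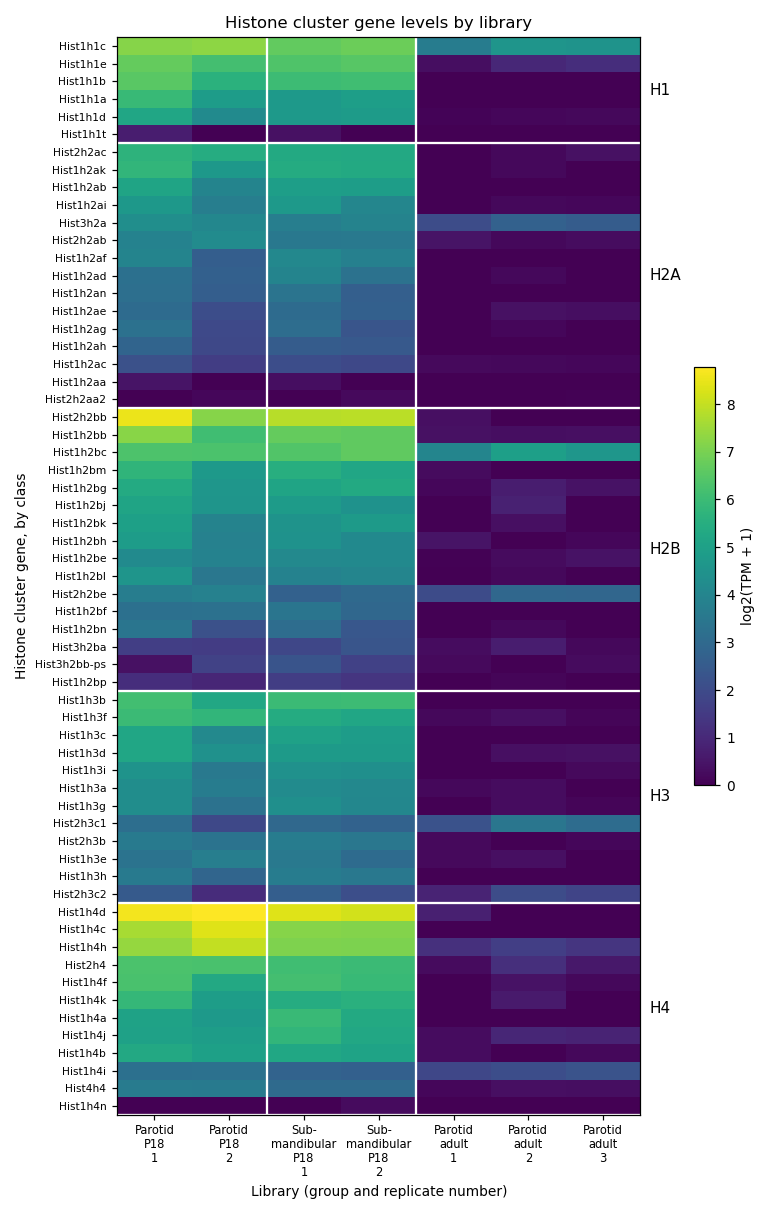
Deposited TPM of each of the 61 histone cluster genes with a count, as log2(TPM + 1), in the 7 libraries (columns) and ordered by class and mean level (rows). Most rows are bright in the 4 P18 libraries and dark in the 3 adult libraries, while Hist1h1c, Hist1h2bc, Hist2h2be, Hist3h2a, Hist2h3c1 and Hist1h4i keep a level in the adults.

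Genes that another gene overlaps or nearly copies are less certain. Over the annotated transcripts, the median tested member had 50.6% of its 50-base stretches found in no other gene. For 12 members that share was at most 10%, and for Hist2h3c1, Hist2h3b, Hist2h2bb and both Hist2h2aa genes it was 0. On the same strand, another annotated gene model lies over Hist2h3c1, Hist2h2bb, Hist2h2aa1, Hist1h2ac and Hist3h2a, which Trim17 overlaps. Counting either strand, 24 members are overlapped by another annotated gene. Hist1h1e and Hist1h2be also overlap on the same strand. How the counting treated shared reads and strand is not given in the sources used here, so counts of these genes may be split or lost.

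Between P18 and adult parotid most histone cluster genes fell. Of 56 tested, 48 were lower in the adult, 1 was higher and 7 did not pass the test, against 25.9% of all 15129 genes tested that were called in either direction, 15.1% lower and 10.7% higher. Libraries of the age groups did not overlap in 50 of the 56, against 54.0% of all genes. The median member differed by -5.14 on the log2 scale, or -4.94 with the members without an adult count set at their bound, and the median of all genes by -0.01. A member at 0 in the adults could pass the filter only through the P18 libraries, so these counts describe the tested members and not all 68.

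The sum over all 68 genes, which no filter selects, was 576 and 486 CPM in P18 parotid and 77.1, 133 and 119 in the adults, a log2 ratio of -2.28 with a pooled SD of 0.32 between libraries. In bulk tissue, fewer dividing cells and less histone mRNA per cell cannot be told apart. Nor can age be told apart from a difference in library preparation, since Rpph1, Rmrp and the small nucleolar RNAs, which also lack a poly(A) tail, were near 0 in all 3 adult libraries and abundant in all P18 libraries, although the labels give polyadenylated RNA for all of them. Every adult fold of a member is therefore a difference between these libraries, in which cells and capture of RNA without a tail are not separated. Markers of other cell types moved with age too. Of 7 fibroblast and matrix markers 5 were lower in the adult (6130 and 9320 CPM summed against 2030 to 2650), and of 9 endothelial markers 4 were lower (391 and 860 CPM against 256 to 313). Of 8 acinar markers 5 were higher, and of 10 B cell and plasma cell markers 2 were higher. Their part in the result was not tested. Without P18 parotid library 2 and adult library 1, which stood apart in their marker genes, 48 members were lower and 3 higher. Plain library sizes in place of TMM moved the median of all genes to -1.24. There 51 members were lower and none higher, beside 10786 of all 15129 genes lower. On log2(TPM + 1), with a median of -1.54 over all genes, 54 of 57 members were lower, beside 12504 of 14358 genes. Most genes were lower in both of these runs, and the member counts are to be read against that.

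Of the 48 lower members, 12 had no count in any adult library. Hist1h4c fell from 421 and 761 counts to none, at least 414-fold lower in the adult. The linker histone genes Hist1h1b and Hist1h1a were at least 233-fold and 162-fold lower. Hist1h3b was at least 109-fold lower, Hist1h3c 61.7-fold, Hist1h2ab 60.3-fold and Hist1h4a 45.6-fold, each as a lower bound set at 3 counts over the adult libraries. All 5 classes were represented among the 12, H2B by Hist1h2bf, which was at least 16.5-fold lower.

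A further 19 of the lower members had 1 to 3 adult counts in sum. Hist2h2bb had 1239 and 535 counts in P18 parotid and 2, 0 and 0 in the adults, a ratio of 933 with a 95% interval of 258 to 7710. Hist1h4d had 846 and 1025 counts against 3, 0 and 0, a ratio of 656 (224 to 3180). For Hist1h2ak, with 1 adult count, the ratio was 227 (40.3 to 9010). Counting error alone enters these limits, and reads without molecular identifiers overstate the number of molecules seen.

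The other 17 lower members had at least 4 adult counts, and their changes could be measured. Hist1h3f, an H3 gene, had 19.4 and 18.2 CPM in P18 parotid and 0.196, 0.318 and 0.0965 in the adults, a log2 change of -6.54 ± 0.34 (SE, adjusted p = 0.000332). Hist1h4h fell from 24.8 and 39.9 CPM to 0.881, 1.14 and 0.868 (-5.06 ± 0.28, adjusted p = 0.000332), and Hist1h1d from 32.8 and 17.4 CPM to 0.294, 0.381 and 0.482 (-5.94 ± 0.36, adjusted p = 0.000488). Hist1h2bb fell by 6.67 ± 0.43 and Hist1h1e by 4.81 ± 0.42 on that scale. In each of these the adult libraries lay far below both P18 libraries. Toward the lower end stood Hist4h4 (-3.79 ± 0.28), Hist1h4j (-3.55 ± 0.41), Hist1h2ae (-2.80 ± 0.71, adjusted p = 0.0279) and Hist1h2ac (-2.44 ± 0.43, adjusted p = 0.00959). Hist1h1c fell least. It had 70 and 81.7 CPM in P18 parotid and 25.3, 40 and 39 in the adults, a log2 change of -1.12 ± 0.23 (adjusted p = 0.0149).

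**Figure D2:**
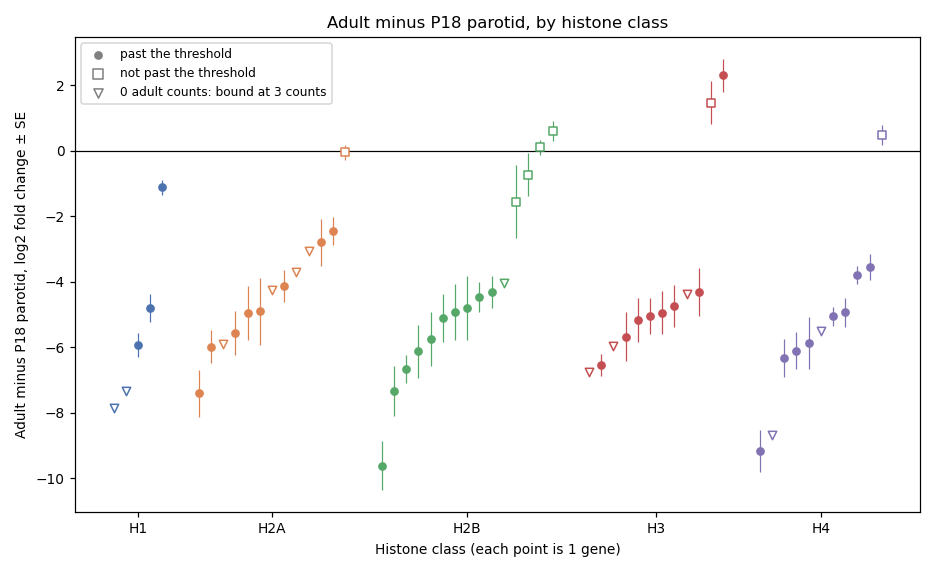
Log2 fold change (± SE) of the 56 tested histone cluster genes between adult and P18 parotid, 1 point per gene, by class. Filled points passed the threshold, open squares did not, and open triangles are genes with 0 adult counts drawn at their bound. Every class lies mostly below 0, and Hist2h3c1 is the single filled point above it.

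A few members were not lower in the adult. Hist2h3c1, an H3 gene of the Hist2h cluster, had 4.54 and 1.66 CPM in P18 parotid and 9, 20.7 and 16 in the adults, a log2 change of 2.30 ± 0.51 (adjusted p = 0.0190). The adult libraries were all above the P18 libraries. This call depended on the scaling, with 1.05 (adjusted p = 0.114) for plain library sizes and 0.40 (adjusted p = 0.448) on log2(TPM + 1), and it was lost without adult library 2 or 3 (adjusted p = 0.0649 and 0.0523). Its neighbour and near copy Hist2h3c2 had 1.45 and 0.403 CPM against 1.17, 3.62 and 2.85, a difference of 1.47 ± 0.66 that did not pass (adjusted p = 0.135).

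Hist1h2bc, at 18.1 and 18.9 CPM in P18 parotid and 15, 24.7 and 19.5 in the adults, differed by 0.10 ± 0.24. Hist3h2a, an H2A gene of the small Hist3h cluster, had 12 and 10.3 CPM against 8.61, 12.7 and 11.1 (-0.04 ± 0.23), and Hist2h2be had 9.98 and 12 against 10.8, 19.9 and 19.5 (0.61 ± 0.30). For each of the 3 the age groups overlapped. Hist1h4i was at 1.41 and 1.57 CPM against 1.96, 1.97 and 2.27 (0.48 ± 0.31, adjusted p = 0.282). Plain library sizes turned Hist1h2bc, Hist2h2be and Hist1h4i negative, at -1.13, -0.60 and -0.75, and moved Hist3h2a to -1.28, and on that scaling Hist1h2bc and Hist3h2a passed as lower. The sign of the change of Hist1h2bc, Hist2h2be and Hist1h4i was thus set by the scaling. The remaining members without a call were Hist3h2ba, at -0.73 ± 0.66, and Hist3h2bb-ps, at -1.56 ± 1.11, with 11 and 3 adult counts.

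The make-up of the histone counts differed between the ages, and a difference in capture of RNA without a poly(A) tail cannot be told apart from a difference in the cells here either. Hist1h1c, Hist1h2bc, Hist2h2be, Hist2h3c1, Hist3h2a and Hist2h3c2 were the 6 members with over 100 adult counts, with 1695, 946, 828, 749, 517 and 128. Chosen by their adult counts, they are described and not tested. Together they held 20.1% and 25.7% of the young parotid libraries' member counts, 19.2% and 21.6% of those of submandibular gland and 90.5%, 91.2% and 91.1% in the adults. Their summed level was 116 and 125 CPM in P18 parotid and 69.8, 122 and 108 in the adults, whereas the other 62 members went from 460 and 361 CPM to 7.34, 11.8 and 10.6.

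By class, H4 made up 37.1% and 53.2% of the summed member TPM in P18 parotid and 11.9%, 9.32% and 9.05% in the adults. TPM shares depend on the gene lengths used and need not match shares of counts. The share of H2B went from 29.1% and 18.7% to 42.7%, 42.5% and 40.1%, and H1 from 14.8% and 13.5% to 26.3%, 25.4% and 29.5%. Of the tested genes, the test called lower all 5 of H1, 12 of 13 of H2A, 11 of 15 of H2B, 10 of 12 of H3 and 10 of 11 of H4. In Hist1h 42 of 44 were lower, in Hist2h 5 of 8, in Hist3h 0 of 3 and in Hist4h the single gene.

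**Figure D3:**
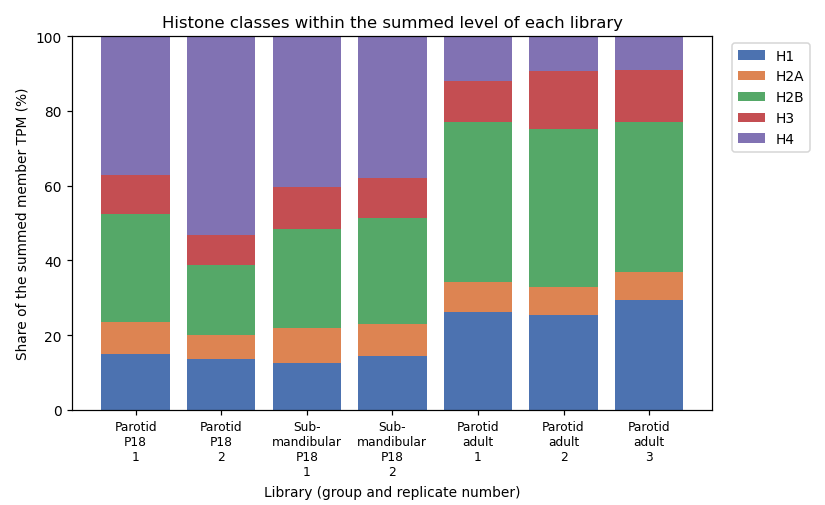
Share (%) of the summed member TPM taken by each histone class in each of the 7 libraries. H4 takes 37.1% to 53.2% at P18 and at most 11.9% in the adults, where H2B takes 40.1% to 42.7% and H1 25.4% to 29.5%.

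Few cell cycle genes passed the test between the ages, where 25.9% of all genes did. Of 31 listed, among them the replication helicase genes Mcm2 to Mcm7 and the mitotic genes Cdk1 and Plk1, 2 were lower in the adult and none higher, with a median log2 difference of -0.18. Mki67, a marker of cycling cells, had 281 and 77.3 CPM in P18 parotid and 58, 18 and 18.4 in the adults (-2.52 ± 0.66, adjusted p = 0.0313), and Ccne2, a cyclin of S phase entry, fell by 1.70 ± 0.41 (adjusted p = 0.0238). Summed, the list was at 850 and 410 CPM in P18 parotid and 650, 331 and 309 in the adults, so the ages overlapped. Adult library 1 had the highest cell cycle sum and the lowest histone sum of the adults.

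**Figure D4:**
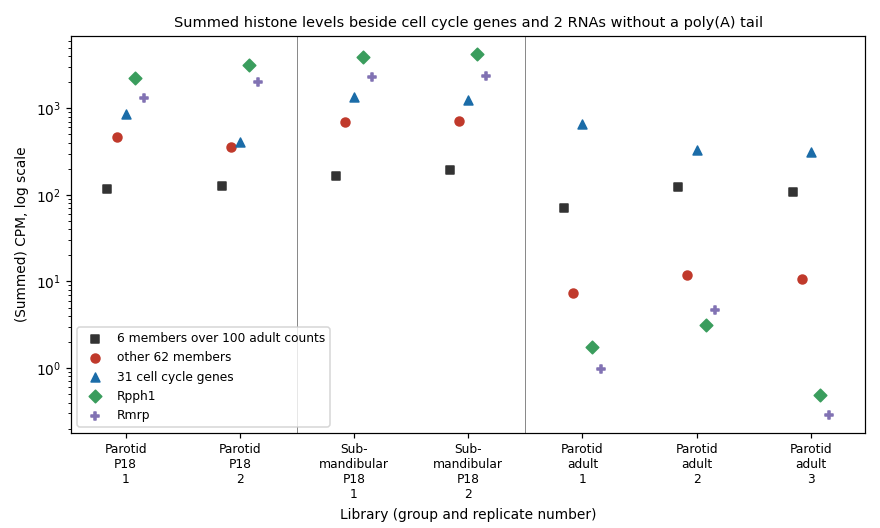
Summed CPM on a log scale, by library, of the 6 members with over 100 adult counts, the other 62 members and the 31 cell cycle genes, with the CPM of Rpph1 and Rmrp. The other 62 members fall from 361 to 706 CPM at P18 to at most 11.8 in the adults, Rpph1 and Rmrp fall further, and the cell cycle sum of adult library 1 lies within the P18 range.

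Genes that make and process histone mRNA showed no common direction. Of 26 listed, 3 were higher and 3 lower in the adult, with a median of -0.02. Of all genes tested, 10.7% were higher and 15.1% lower. Npat, the transcriptional coactivator of the histone clusters, went from 24.3 and 23.1 CPM to 9.59, 9.35 and 11.5 (-1.22 ± 0.17, adjusted p = 0.00474), and Casp8ap2, which works with it, fell by 1.03 ± 0.16. Zcchc11, a uridylyltransferase of histone mRNA decay, fell by 1.09 ± 0.26. The higher genes were Snrpf (2.1 ± 0.32), Snrpd3 (1.68 ± 0.18) and Snrpg (0.99 ± 0.29), Sm proteins that the U7 particle shares with the spliceosome. Slbp, the stem-loop binding protein, had 21.6 and 25.9 CPM at P18 in parotid, 24.3 and 26 at P18 in submandibular gland and 27.7, 19.8 and 21.5 in the adults, with overlap between the ages.

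Of 22 histone chaperone and deposition genes, 1 was higher and 1 lower in the adult, again beside 10.7% and 15.1% of all genes. Anp32e, which removes the variant H2A.Z, was higher (0.82 ± 0.18, adjusted p = 0.0174) and Atrx, which deposits H3.3, was lower (-1.18 ± 0.23, adjusted p = 0.0124). Of 10 tested histone variant genes outside the clusters, most with polyadenylated mRNA made outside S phase as well, 1 was higher and none lower. H2afj was at 16.2 and 13.1 CPM in P18 parotid and 40.9, 45.7 and 37.8 in the adults (1.5 ± 0.18, adjusted p = 0.00326). The median variant gene differed by 0.37. Among members known in human cells to give polyadenylated mRNA, 5 were in the table, and Hist1h2bk and Hist1h2ac fell with Hist1h1c, while Hist1h2bc and Hist2h2be had no call. Hist1h2bk had 120 counts over the P18 parotid libraries and 2 over the adults. The testis-type members Hist1h1t, Hist1h2aa and Hist1h2ba had too few counts to test.

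The length of transcript annotated after the stem-loop differed widely among members. Of 15 tested members whose longest transcript ends 11 to 74 bases after it, 15 were lower in the adult, 4 of them with no adult count, and the median was -5.91 on the log2 scale with these at their bound. Of 12 with 151 to 840 bases after it, 9 were lower, with a median of -3.93 taken in the same way. Of 9 with 1153 to 4884 bases, 7 were lower, with a median of -4.32. Hist3h2a, with 1643 bases, and Hist2h3c1, with 1167, were not lower, whereas Hist1h1d and Hist4h4, with 4884 and 2445, were. Another 20 tested members had no stem-loop in an annotated transcript, and 17 of them were lower, with a median of -4.88. The annotation of many of these is short and may end before the stem-loop, so they need not lack it. Over all 56 tested members 48 were lower, and a trend with this length was not tested. These are properties of the annotation, and no reads over this stretch were examined. Lengths implied by the deposited TPM were shorter for some members, at 312 bases for Hist1h4d and Hist1h4c, annotated at 1138 and 820. Those of Hist1h2bh and Hist2h4 were 382 and 349 bases, against 1679 and 1630. Such lengths fall short of the annotated stem-loop, so the stretch after it may not have been counted for them. The groups above thus need not describe the transcripts that were counted.

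Between the glands at P18 few histone genes passed the test. Of 56 tested, 3 were higher in submandibular gland, 0 lower, and 53 did not pass, while 24.4% of all genes were called, 10.2% higher and 14.2% lower. An unadjusted p under 0.05 was reached by 20 members, a limit also met by at least the 24.4% of all genes called. DESeq2 called 7 of the 56 members, all higher, beside 1922 of 15129 genes higher. This comparison uses the same P18 parotid libraries as that between the ages. Hist1h2bc had 36.4 and 45.7 CPM in submandibular gland against 18.1 and 18.9 in parotid (1.15 ± 0.26, adjusted p = 0.0207). Hist1h4j had 10.2 and 7.47 against 3.04 and 3 (1.55 ± 0.37, adjusted p = 0.0246), and Hist1h4a 11.3 and 7.69 against 3.13 and 2.73 (1.69 ± 0.37, adjusted p = 0.0290). For these genes both submandibular libraries were above both parotid libraries. Libraries of the glands did not overlap in 50 of 56 members, against 64.9% of all genes, counted in either direction.

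Of the 12 members most abundant by mean TPM, Hist1h2bc alone passed, and the others had log2 differences between 0.05 and 1.2. Hist1h3b (1.2 ± 0.35), Hist1h4f (1.14 ± 0.42), Hist1h1e (0.92 ± 0.40), Hist1h2bb (0.86 ± 0.33) and Hist1h1b (0.86 ± 0.34) were near the member median, and others were lower. Hist1h4d was at 61.8 and 56.8 CPM in submandibular gland against 38.4 and 45.9 (0.49 ± 0.42), Hist2h2bb at 68 and 73.4 against 56.2 and 24 (0.82 ± 0.47), and Hist1h1c at 94.6 and 110 against 70 and 81.7 (0.43 ± 0.26). Hist1h4c, at 27.3 and 27.7 against 19.1 and 34.1 (0.05 ± 0.32), lay between the parotid libraries. The median of the 56 was 1.00, with 55 above 0 and Hist2h2be at -0.11 ± 0.33, against -0.07 for all genes.

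That median moved with the scaling, and the median of all genes moved with it. Plain library sizes gave 0.38, with -0.67 for all genes. There 45 members were above 0 and none was called, beside 520 of 15129 genes higher and 5435 lower. On log2(TPM + 1) the member median was 0.11, with -0.83 for all genes. There 1 member was higher and 5 lower, beside 462 and 8829 of 14358 genes. Summed over all 68 genes the level was 860 and 900 CPM in submandibular gland against 576 and 486, a log2 ratio of 0.73 with a pooled SD of 0.13, but the summed TPM gave -0.20. With TMM, the member median moved with single parotid libraries as well. Without parotid library 1, which leaves the library rich in fat and muscle genes, it was 1.5, with 0.01 for all genes. Without parotid library 2 it was 0.72, with or without adult library 1, and all genes were at -0.02. Without submandibular library 1 it was 0.97, with -0.09 for all genes, and without submandibular library 2 it was 1.0, with -0.06. Each of these fits left 1 library in a group, and its spread was taken from the other groups. Their calls are therefore not weighed here.

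**Figure D5:**
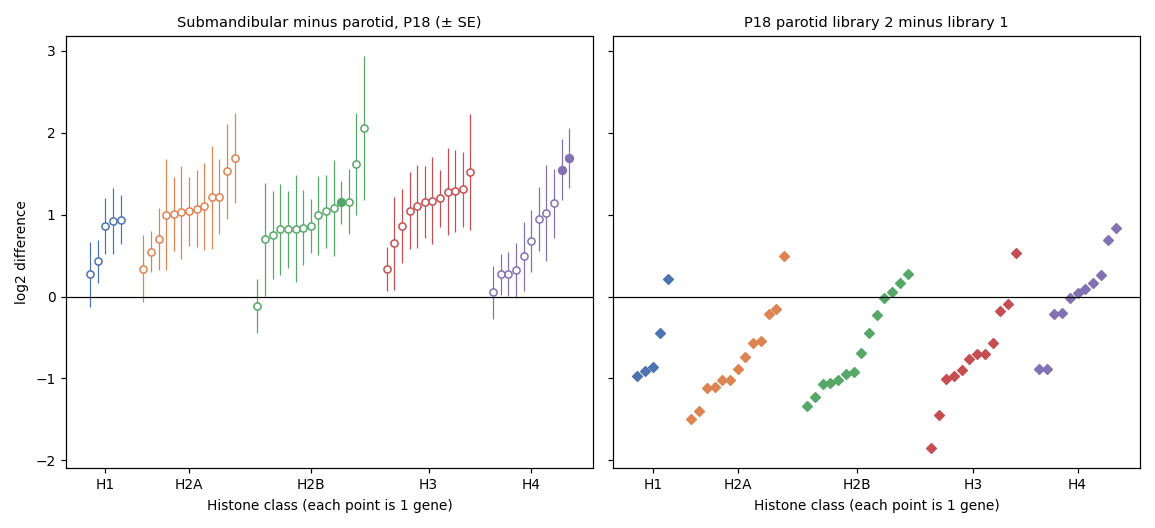
Log2 differences of histone cluster genes at P18, 1 point per gene, by class. On the left is submandibular gland minus parotid (± SE), with the 3 genes past the threshold filled. On the right is P18 parotid library 2 minus library 1, where most H1, H2A, H2B and H3 genes lie below 0 and H4 genes lie around it.

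Some genes of the cell cycle and of histone handling passed the test between the glands at P18, in shares to be read against the 10.2% of all genes that were higher and the 14.2% that were lower. Of the 31 cell cycle genes, 6 were higher in submandibular gland and none lower, with a median log2 difference of 1.01. Ccnd1, a cyclin of the G1 phase, had 276 and 237 CPM against 54 and 51.9 (2.27 ± 0.35, adjusted p = 0.00710), and Mcm2 had 62.3 and 45.3 against 18 and 11 (1.89 ± 0.40, adjusted p = 0.0171). The histone acetyltransferase gene Hat1 (0.99 ± 0.18) and the H3 and H4 chaperone genes Nasp (0.78 ± 0.19) and Chaf1b (1.94 ± 0.51) were higher, as was Rbbp7 (0.66 ± 0.18), 4 of 22 in that list. Of the variants, H2afj (1.48 ± 0.19), H3f3b (1.38 ± 0.26) and H1f0 (0.85 ± 0.24) were higher. In the processing list 2 of 26 were lower, Ctif (-1.09 ± 0.25) and Sympk (-0.62 ± 0.18). Beside these differences, the 12 adipocyte and 13 muscle markers summed to at most 56.6 CPM in submandibular gland, and the 6 epithelial markers to 1260 and 1430 CPM against 545 and 214 in parotid. Their part in the result was not tested.

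The P18 parotid libraries differed from each other by histone class. Over members with at least 5 counts in both libraries, library 2 differed from library 1 by a median of -0.70 on the log2 scale in 55 members, -0.81 in the 44 of the H1, H2A, H2B and H3 classes and 0.04 in the 11 of H4. In H4, 6 of 11 were higher in library 2, led by Hist1h4c (0.84) and Hist1h4h (0.69), and in the other classes 6 of 44, led by Hist1h3e (0.53) and Hist2h2ab (0.50). The lowest were Hist2h3c2 (-1.85), Hist1h2ag (-1.50) and Hist2h3c1 (-1.45). These are differences between 2 libraries, with no replicate behind them. Cell cycle genes differed by -0.95 at the median, adipocyte and muscle markers by 1.65 and 2.37, epithelial markers by -1.26 and all genes by -0.02. Between the submandibular libraries the member median was -0.06, with -0.06 in H4 and -0.07 in the other classes.

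Promoters are shown for a member of each of 3 classes because the histone genes are known to be driven by class-specific elements. RefSeq promoters (250 bases before to 50 after the start, GRCm38.p6) were matched for 61 members. Searched on both strands, the octamer ATTTGCAT, known in H2B promoters as the site of Oct-1, was in 7 of 17 H2B and 7 of 17 H2A promoters, in none of H1, H3 or H4, and in 1.74% of all promoters. The letters TATAAA were in 56.5% of member promoters against 13.6% of all, and CCAAT in 85.5% against 37.4%, with 3 of 12 in H4 and every promoter of the other classes. H2A and H2B genes often lie head to head, so one stretch can serve a pair. Capitals mark these letters in either direction.
Hist1h2bb, chr13:23746484-23746783, plus strand: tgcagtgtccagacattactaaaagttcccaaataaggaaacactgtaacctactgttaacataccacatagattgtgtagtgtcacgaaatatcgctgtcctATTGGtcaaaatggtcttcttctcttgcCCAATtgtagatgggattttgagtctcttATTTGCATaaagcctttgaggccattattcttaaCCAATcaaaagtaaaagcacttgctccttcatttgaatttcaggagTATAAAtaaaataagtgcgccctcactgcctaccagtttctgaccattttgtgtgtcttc
Hist1h1c, chr13:23738557-23738856, plus strand: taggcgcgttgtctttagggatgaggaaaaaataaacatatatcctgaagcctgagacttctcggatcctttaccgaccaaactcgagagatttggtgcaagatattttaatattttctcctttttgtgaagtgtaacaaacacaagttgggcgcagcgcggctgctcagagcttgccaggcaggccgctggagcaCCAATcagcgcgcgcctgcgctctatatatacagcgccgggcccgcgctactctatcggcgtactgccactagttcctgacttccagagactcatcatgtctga
Hist1h4c, chr13:23698409-23698708, minus strand: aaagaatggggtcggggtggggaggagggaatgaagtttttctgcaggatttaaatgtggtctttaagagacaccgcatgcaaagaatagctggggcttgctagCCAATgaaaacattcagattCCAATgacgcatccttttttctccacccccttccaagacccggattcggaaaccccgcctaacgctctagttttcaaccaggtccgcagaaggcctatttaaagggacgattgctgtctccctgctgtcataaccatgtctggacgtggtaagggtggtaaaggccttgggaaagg
Hist1h2bb, which fell in the adult, holds all 3 motifs, Hist1h1c, which fell least, holds CCAAT alone, and so does Hist1h4c, which had no adult count. A match of letters is a description and was not tested as a site.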

How the data were processed

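RNA of 7 mouse salivary gland libraries was analysed from tables indexed by gene symbol. The authors deposited raw counts per gene and TPM. Per the labels' protocols, libraries were made by an Illumina TruSeq kit from 1 µg of RNA. Build mm9 is named in the submitters' processing notes, as are featureCounts 1.5.1, Bowtie2 2.2.6, DESeq2 1.20.0 and TopHat2 2.1.1, without roles or order. Among the count columns, 2 could be tied to no sample and were left out.

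Groups came from the sample labels. Counts were tested with edgeR 4.0.16 in R 4.3.3 (TMM factors of 0.640 to 1.72, minimum count of 10 and total of 15, quasi-likelihood F test) in one fit of 3 groups with 4 residual degrees of freedom. Benjamini-Hochberg adjustment ran over all 15129 genes tested, with a threshold of 0.05. Standard errors are derived from the F statistic. In counts simulated over 14852 genes, the fit recovered 92% of 50 genes changed 4-fold between the ages of the parotid. Those genes were drawn from better-counted ones, so the rate does not carry over to members with few adult counts. Alternatives used DESeq2 1.42.0 and limma 3.58.1 on log2(TPM + 1), whose pseudocount understates changes of low genes. Bounds were set at 3 counts over a group and ratios given with 95% exact intervals.

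The members and gene lists were chosen with earlier results of these data known. Members were named if past the threshold (the 30 with the smallest adjusted p), among the 12 most abundant or the leading gene of a class in a group, and not all of these are printed. The other members and genes named were chosen after their values were seen. No replicate pair agreed within sampling noise (chi-square per degree of freedom of 13.3 to 197). Gene coordinates of the mm9 build are not given, and sequences come from GENCODE M21 and RefSeq on GRCm38.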

Additional observations from a re-analysis of the deposited data

How the results depend on the processing

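The fall of the histone genes between the ages kept its direction in each alternative run, with 44 to 55 members called against 49. The 55 came on log2(TPM + 0.1), where 12458 of 14358 genes were lower. The size of the fall moved, with member medians of -3.84 to -6.45 against -5.14. Of the 49 called members, 35 were followed one by one, chosen largely for a small adjusted p or a high level. Of these, 33 held their call in all 18 alternatives, the exceptions being Hist2h3c1 and Hist1h2ae. The other called members were not followed, and some of their calls were lost. Against 48 members lower in the main fit, 44 were lower with the replicate block and 45 without adult library 3. Leaving out 1 library gave 45 to 50 called members. The summed level had a log2 ratio of -3.51 with plain library sizes and -5.19 with TPM, against -2.28. Members near 0 turned with the scaling. Plain library sizes gave -1.13 for Hist1h2bc, -0.75 for Hist1h4i and -0.60 for Hist2h2be. On log2(TPM + 1), with and without its filter, Hist1h2bc was at -1.80, Hist1h4i at -1.20, Hist2h2be at -1.18 and Hist2h3c2 at -0.23, and on log2(TPM + 0.1) at -1.84, -1.41, -1.33 and -0.31. Leaving out a library turned Hist3h2a to 0.09 and 0.12, Hist3h2bb-ps (range -2.31 to 0.46) and Hist1h2bc to -0.09, and leaving out P18 parotid library 2 and adult library 1 together, chosen after seeing the data, turned Hist3h2a to 0.02 and Hist3h2bb-ps to 0.26.

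Between the glands at P18 the 3 calls were not stable, and none of them held throughout. Plain library sizes called 0 members, DESeq2 7, limma 6 on log2(TPM + 1), 5 without its filter and 1 on log2(TPM + 0.1), and 18 were called without both libraries named above. Leaving out 1 library gave 0 to 19 called members and summed log2 ratios of 0.63 to 0.90. The summed ratio of 0.73 became 0.11 with plain library sizes and -0.20 with TPM. Plain library sizes turned Hist1h1c to -0.17, Hist1h4c to -0.54, Hist1h4d to -0.11 and Hist1h4h to -0.32. On log2(TPM + 1), with and without its filter, Hist1h1c was at -0.49, Hist1h4c at -0.82, Hist1h4d at -0.43, Hist1h4h at -0.61, Hist2h4 at -0.25, Hist1h1b at -0.01 and Hist1h1e at 0.00, and on log2(TPM + 0.1) at -0.50, -0.82, -0.44, -0.62, -0.25, -0.01 and 0.00. With 1 library left out, Hist1h4c ranged from -0.27, without P18 parotid library 1, to 0.54, and Hist2h2be from -0.29 to 0.10, without submandibular library 1. Without P18 parotid library 2, with or without adult library 1, Hist2h2be was at 0.05.

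Over all genes, 3915 were called between the ages and 3686 between the glands, and DESeq2 called 4925 and 4529. The counts became 10953 and 5955 with plain library sizes, 2182 and 1349 with 2 groups in the fit, 12595 and 9291 on log2(TPM + 1), 14170 and 9941 without its filter, 12546 and 8689 on log2(TPM + 0.1), 6518 and 6245 without both libraries, and 1306 to 6073 and 148 to 5397 with 1 library left out. Plain library sizes made 1.52% and 8.73% of the calls higher, against 41.5% and 41.7%, and log2(TPM + 1) 0.723% and 4.97%. The cause of these changes was not tested.

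Replicate numbers recur across groups but are not said to pair libraries, and deviations of same-numbered libraries correlated by -0.02 to 0.24. With the replicate number as a block, 44 members were called lower and none higher between the ages, out of 1496 genes, and 2 members higher between the glands, out of 2529. Low counts limited the precision of the adult values, since 12 tested members had no count and 20 had 1 to 3 over the adult libraries.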
